A study of Mus musculus with 3 samples.

Results

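Chemokines, interleukins and the receptors for both were read in whole mouse ovaries that lack the clock gene Bmal1 in cells expressing Cre from the Sf-1 promoter. Members were taken by name: every gene on the array whose name starts with Ccl, Cxcl, Ccr or Cxcr and a digit, or with Il and a digit. This gave 133 genes, with 187 probes, of 28090 gene names on the array. A member was described where its brightest probe was well above background, by the scanner software's own flag, on every one of the 3 arrays in the same channel, be it that of the conditional knockout (cKO) or that of the control. This left 80 members among 17901 genes tested: 17 CC ligands, 7 CXC ligands, 8 chemokine receptors, 17 interleukins and related secreted proteins, and 31 interleukin receptor chains. The other 53 were too dim, 39 of them never well above background in either channel.

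The cKO females carried floxed Bmal1 on both alleles and a Cre transgene driven by the sf-1 promoter, and the controls had no Cre. The control genotype is given in 2 ways, as Bmal1fxfx (wild type) and, in the names of the pools, as fxwt, so whether both control alleles were floxed is not settled by the labels. SF-1 marks steroid-producing cells and is also made by pituitary gonadotropes, and whole ovary RNA mixes cells that the Cre targets with leukocytes, vessels and stroma. All animals were C57Bl/6J females of 10 weeks, killed at Zeitgeber time 12 at 3.5 days post copulation. Each of 3 two-colour arrays held 1 pool of 3 cKO animals in cy3 and 1 pool of 3 control animals in Cy5, with different pools on each array. The dyes were not swapped, so a gene's dye bias and its genotype difference cannot be told apart. The labels number the Cre allele by array on arrays 2 and 3, and these arrays were placed by their titles.

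Chemokines are small secreted proteins that draw leukocytes along a gradient through G protein-coupled receptors. CC and CXC ligands differ in the spacing of their first cysteines, and many CC ligands are made by macrophages and dendritic cells. Interleukins act through receptor chains that are often shared between several ligands and that signal through JAK and STAT proteins or, for the IL-1 family, through MYD88 and NF-kappaB. In the ovary leukocytes enter around ovulation, and macrophages and lymphocytes are found in the corpus luteum as it forms and regresses.

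Spots had a median signal of 2.42 to 2.80 times their local background in the cKO channel and of 1.80 to 2.36 times in the control channel. The arrays did not run alike: over all probes the log ratios of arrays 1 and 2 correlated at 0.350, those of arrays 1 and 3 at 0.0508 and those of arrays 2 and 3 at -0.201. Arrays 2 and 3 shared a slide and array 1 had its own. The targeted gene, named Arntl on the array, had 1 probe, whose place relative to the floxed exons is not given in the sources used here; it therefore checks nothing about the labels. Arntl measured 1044, 885 and 896 units of processed signal in the cKO pools of arrays 1, 2 and 3, against 872, 823 and 1090 units in their control pools. Star, the cholesterol carrier of steroidogenic mitochondria, fell in the cKO pools (log2 ratio -4.09 ± 0.12, SD, n = 3, limma adjusted p = 0.0160). All 10 luteal and steroidogenic markers and all 9 granulosa markers looked for were detected.

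Ratios below are log2 of the cKO over the control signal within a spot, taken from the deposited log10 ratios, and signals are processed spot intensities in arbitrary units. Signals of different probes do not rank the levels of their genes. The test was limma's moderated test over all 17901 genes with Benjamini-Hochberg adjustment. It called 54 genes at an adjusted p under 0.05, which is 0.302% of those tested, 28 higher (0.156%) and 26 lower (0.145%). None of the 80 described members was called, and the lowest adjusted p among them was 0.171, for Ccl17. At an unadjusted p under 0.05 stood 16 of the 80 members (20%), 12 higher and 4 lower, against 5.99% of all genes tested (2.98% higher, 3.01% lower). After normexp background correction and loess the count was 9 of 80 (11.2%), 5 higher and 4 lower, against 12.3% of all genes (6.02% higher, 6.32% lower), so the members' share lay above the background in the first processing and below it in the second.

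For the whole set, the median of the members' mean log2 ratios was 0.12, against -0.02 over all genes tested. It was 0.03 under normexp and loess, against 0.00 over all genes, and 0.07 among the 72 members well above background in both channels, against -0.02 over the genes passing that filter. By array the members' median was 0.20, 0.27 and 0.01 on arrays 1, 2 and 3, against -0.05, -0.03 and 0.04 over all genes. On all 3 arrays 19 members lay above 0 (23.8%, against 11.5% of all genes) and 9 lay below it (11.2%, against 12.6%). Another 25 members lay above 0 on arrays 1 and 2 and below it on array 3 (31.2%, against 17.9% of all genes), and 7 showed the reverse pattern (8.75%, against 25.2%). A mean of 1 or more was reached by 8 members, beside 1.39% of all genes, and a mean of -1 or less by 2, beside 1.18%. Of those 8, 4 passed the filter through the cKO channel alone. Among the 72 members that passed in both channels, 4 reached 1 or more (5.56%, beside 1.05% of the genes passing that filter) and 2 reached -1 or less (2.78%, beside 1.03%). Under normexp and loess 0 members reached either, with Ccl6 just short of it at 0.9993. The share of all genes was not taken for that processing. Without array 3 the members' median was 0.25, and no member was called. The members' median log2 signal was 8.51, against 10.2 over all genes tested.

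**Figure D1:**
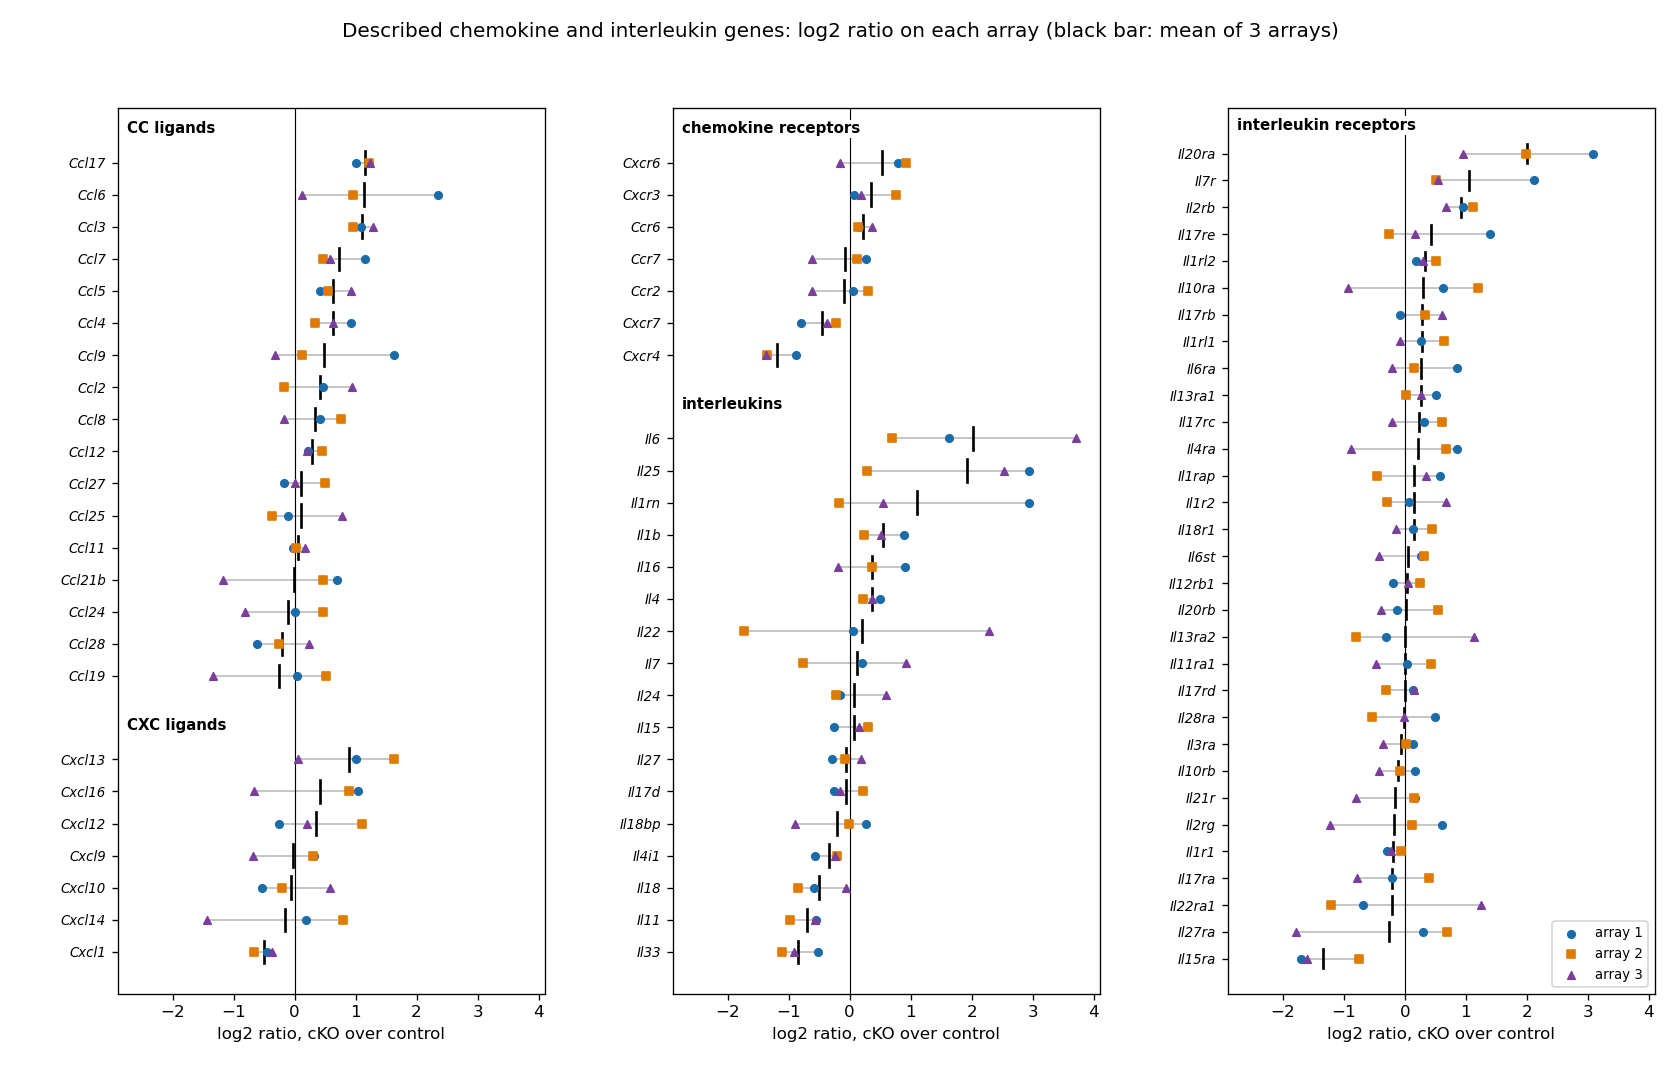
Log2 ratio of cKO over control (x axis) of the described members (rows, by family, ordered by mean) on arrays 1, 2 and 3 (circles, squares, triangles), with the mean as a black bar. Ccl17, Ccl3, Cxcr4 and Il15ra have all 3 points well to one side of 0, while the points of Il22, Il27ra and Il2rg lie on both sides of it.

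Promoter windows were searched because BMAL1 with CLOCK binds the E-box CACGTG. RefSeq promoter windows of GRCm38.p6, from 250 bases before to 50 after a start, were at hand for 60 of the 80 described members. The E-box, which reads the same on both strands, was in 2 of 60 (3.33%), Il6ra and Il1r2, against 11.2% of 11757 tested genes with a window. TTCNNNGAA, the form bound by STAT proteins and also its own complement, was in 8 of 60 (13.3%), against 8.34%. TGANTCA, the AP-1 form with any base at its centre and also its own complement, was in 14 of 60 (23.3%), against 6.58%. A match is a string of letters and not a site shown to be bound. Shown here are the 250 bases before the start for the 4 members with the lowest adjusted p, and for Il6ra as 1 of the 2 with an E-box. Capitals mark a match to 1 of the 3 forms: the STAT form in Ccl17 (chr8:94810203-94810452, plus strand, 99 bases before the start), the AP-1 form in the second of 2 starts of Il15ra (chr2:11705462-11705711, plus strand, 30 bases before), and the E-box in Il6ra (chr3:89913197-89913446, minus strand, 24 bases before). Ccl3 (chr11:83649379-83649628, minus strand) and Cxcr4 (chr1:128592300-128592549, minus strand) have none of the 3 here.
Ccl17: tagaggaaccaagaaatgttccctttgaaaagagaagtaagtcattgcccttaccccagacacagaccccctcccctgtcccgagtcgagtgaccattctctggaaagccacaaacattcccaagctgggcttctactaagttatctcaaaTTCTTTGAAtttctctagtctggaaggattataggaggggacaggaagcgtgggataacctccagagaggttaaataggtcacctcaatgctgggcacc
Ccl3: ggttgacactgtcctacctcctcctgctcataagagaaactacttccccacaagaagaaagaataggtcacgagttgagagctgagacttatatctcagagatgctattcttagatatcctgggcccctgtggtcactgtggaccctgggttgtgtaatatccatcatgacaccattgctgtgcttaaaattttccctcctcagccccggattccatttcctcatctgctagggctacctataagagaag
Cxcr4: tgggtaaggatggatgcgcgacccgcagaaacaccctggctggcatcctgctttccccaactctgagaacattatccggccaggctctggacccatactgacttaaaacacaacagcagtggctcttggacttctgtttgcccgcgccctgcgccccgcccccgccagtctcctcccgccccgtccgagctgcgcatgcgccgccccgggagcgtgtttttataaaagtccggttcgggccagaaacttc
Il15ra: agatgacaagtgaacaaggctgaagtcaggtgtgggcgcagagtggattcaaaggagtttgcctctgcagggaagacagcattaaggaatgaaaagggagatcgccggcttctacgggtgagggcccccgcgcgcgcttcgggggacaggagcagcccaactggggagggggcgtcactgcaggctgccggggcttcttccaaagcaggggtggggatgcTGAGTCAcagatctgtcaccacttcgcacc
Il6ra: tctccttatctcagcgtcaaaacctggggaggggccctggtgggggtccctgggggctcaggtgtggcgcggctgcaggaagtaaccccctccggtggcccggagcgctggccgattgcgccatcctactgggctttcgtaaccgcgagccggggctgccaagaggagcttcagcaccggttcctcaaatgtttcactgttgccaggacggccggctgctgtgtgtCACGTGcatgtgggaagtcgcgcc

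The windows of Ccl17, with its STAT form, and of Ccl3, with no match, belong to genes measured above control on every array, and those of Cxcr4, with no match, and Il15ra, with its AP-1 form, to genes measured below it. Of the 14 members above 0 on all arrays that had a window, 4 held the STAT form, 2 the AP-1 form and 0 the E-box. Of the 9 below 0 on all arrays, 0 held the STAT form, 2 the AP-1 form and 0 the E-box. Il6 and Il20ra, which hold the AP-1 form in the first group, were described only through the cKO channel. So was Il4, which holds the STAT form there. Passing in that way favours a value above 0. The counts were not tested, and shares of all genes in each direction were not taken.

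Of the CC ligands, 13 of the 17 described had a mean above 0, beside 8406 of 17895 genes tested on all 3 arrays. On all 3 arrays 7 lay above 0, beside 11.5% of all genes, and 0 lay below it, beside 12.6%. The median log2 ratio of the CC ligands was 0.34 (0.42, 0.46 and 0.20 on arrays 1, 2 and 3). In bulk ovary RNA, more cells of a type and more RNA per cell cannot be told apart.

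Ccl17, a ligand of CCR4 made by dendritic cells and macrophages, had the largest mean of the CC ligands. Its signal was 2056, 2485 and 1334 units in the cKO pools of arrays 1, 2 and 3, against 1020, 1067 and 565 units in the control pools. All cKO pools were above all control pools, and the log2 ratios of 1.01, 1.22 and 1.24 differed by only 0.23 between arrays. The mean of 1.16 ± 0.13 (SD, n = 3, 2.23-fold) was not called (limma adjusted p = 0.171). Under normexp and loess the mean was 0.83. Its promoter window is the first of those printed above.

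Ccl3, which attracts monocytes, macrophages and T cells, followed the same course on each array. It measured 537, 252 and 311 units in the cKO pools, against 252, 130 and 128 units in the control pools. Within every array the cKO pool was higher, with log2 ratios of 1.09, 0.96 and 1.28, although the cKO pool of array 2 only equalled the control pool of array 1. The mean was 1.11 ± 0.16 (SD, n = 3, 2.16-fold, limma adjusted p = 0.194), and 0.72 under normexp and loess.

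Ccl4 and Ccl5 are inflammatory chemokines that attract T cells and monocytes. Ccl4 had log2 ratios of 0.92, 0.34 and 0.64 (limma adjusted p = 0.710), and 0.24 as its mean under normexp and loess. Ccl5 measured 2099, 1831 and 1901 units in the cKO pools, against 1565, 1251 and 997 units in the control pools. No Ccl5 signal of a cKO pool overlapped those of the control pools, and a second probe gave a mean of 0.52 beside the 0.63 ± 0.26 of the first (SD, n = 3, limma adjusted p = 0.684). Ccr1, a receptor of Ccl3, was too dim to describe.

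Ccl6, a macrophage chemokine of rodents, was spread far more widely. It had 15120, 3673 and 4414 units in the cKO pools, against 2973, 1894 and 4062 units in the control pools. The cKO pool of array 1 alone stood clear of the rest, and the log2 ratios were 2.35, 0.96 and 0.12. The mean of 1.14 ± 1.12 (SD, n = 3, limma adjusted p = 0.757) was close to that of Ccl3, with a far larger SD. Without array 1 the mean of Ccl6 was 0.54. Its close relative Ccl9 ran likewise, at 1.64, 0.13 and -0.32.

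The monocyte chemoattractants Ccl2, Ccl7, Ccl8 and Ccl12 had ranges over the arrays of -0.17 to 0.95, 0.47 to 1.15, -0.17 to 0.76 and 0.20 to 0.45. Ccl7 and Ccl12 were therefore above 0 on every array, and Ccl2 and Ccl8 on all but 1. Ccl11, which attracts eosinophils, lay between -0.02 and 0.17. Ccr2, the receptor of Ccl2, Ccl7 and Ccl12, lay between -0.62 and 0.30.

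Many mouse CC ligand genes lie in clusters on chromosome 11. All 10 described members there had a mean above 0, beside 8406 of 17895 genes tested on all 3 arrays. Those 10 had a median of 0.56 (0.70, 0.46 and 0.39 on arrays 1, 2 and 3). On all 3 arrays 6 of the 10 lay above 0, beside 11.5% of all genes. Under normexp and loess the median was 0.38, against 0.00 over all genes, with 9 of 10 above 0 and Ccl11 the exception. The 7 CC ligands on other chromosomes had a median of -0.00, with 3 of 7 above 0. The grouping was made after the values were seen, and the difference was not tested.

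Ccl21b and Ccl19, the ligands of CCR7 that guide lymphocytes and dendritic cells to lymphoid tissue, turned on array 3. The name Ccl21b is an older one that RefSeq now gives as Ccl21a; the Ccl21 copies are near identical, so the probe cannot be tied to one of them. It had 20500, 12700 and 10570 units in the cKO pools, against 12690, 9215 and 23750 units in the control pools. The cKO pool was the brighter on arrays 1 and 2 and the dimmer on array 3 (0.69, 0.46 and -1.17), and without array 3 the mean was 0.58 in place of -0.00. Ccl19 gave 0.05, 0.51 and -1.33. Of the remaining CC ligands, Ccl24 lay between -0.81 and 0.46, Ccl25 between -0.37 and 0.78, Ccl27 (now Ccl27a, with near-identical copies) between -0.17 and 0.49, and Ccl28 between -0.62 and 0.24. None of these 4 kept 1 sign over the 3 arrays.

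**Figure D2:**
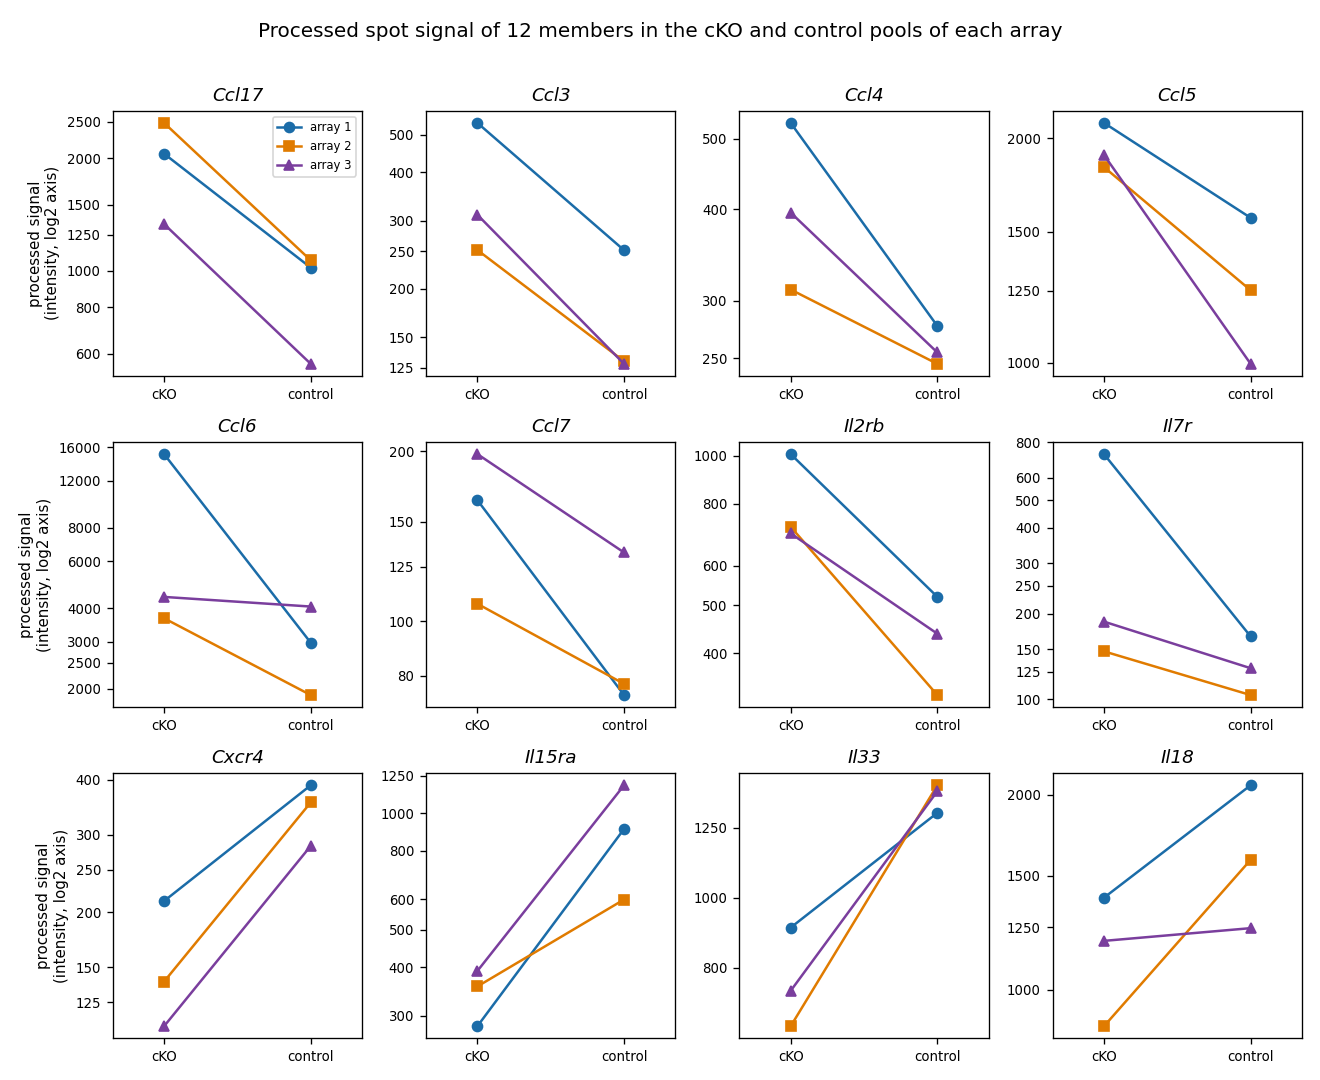
Processed signal (y axis, intensity in arbitrary units on a log2 scale that differs between panels) of 12 members in the cKO pool and the control pool of each array, joined by array. Lines of Ccl17, Ccl3, Ccl4, Ccl5, Ccl7, Il2rb and Il7r slope down to the control on every array, lines of Cxcr4, Il15ra and Il33 slope up, and Ccl6 and Il18 are nearly level on array 3.

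The CXC ligands had no common direction, with a median of -0.03 (0.18, 0.80 and -0.37 on arrays 1, 2 and 3). Cxcl1, a neutrophil attractant that acts through CXCR2, was the lowest. It measured 198, 139 and 271 units in the cKO pools, against 270, 221 and 351 units in the control pools. Each cKO pool was below its own control pool, while the groups overlapped across arrays, and the mean log2 ratio was -0.49 ± 0.15 (SD, n = 3, limma adjusted p = 0.891). Both genes for CXCR1 and CXCR2, listed as Il8ra and Il8rb, were too dim to describe.

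Cxcl13, the B cell attractant, had the largest mean of the CXC ligands at 0.90 ± 0.80 (SD, n = 3, limma adjusted p = 0.751). It was dim, with 92.5, 40.3 and 61.0 units in the cKO pools, against 46.0, 13.0 and 58.8 units in the control pools. Its control signal was well above background on 2 of 3 arrays, and under normexp and loess the mean was 0.21. The receptor Cxcr5 was not described.

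Cxcl14, a chemokine of epithelium and stroma, was the brightest CXC ligand and turned on array 3 as Ccl21b did. It had 17100, 17570 and 7275 units in the cKO pools, against 15070, 10080 and 19590 units in the control pools. The log2 ratios were 0.18, 0.80 and -1.43, and the mean without array 3 was 0.49 in place of -0.15. Cxcl16, which binds CXCR6, gave 1.04, 0.89 and -0.66, and Cxcr6 itself gave 0.79, 0.93 and -0.15. The ligands of CXCR3, Cxcl9 and Cxcl10, ranged from -0.69 to 0.32 and from -0.54 to 0.59. Cxcr3 was above 0 on all arrays, between 0.08 and 0.76.

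Cxcr4, the receptor for CXCL12 that retains leukocytes and steers vessel growth, had the largest mean in size of the chemokine receptors and the lowest. Its signal was 212, 139 and 110 units in the cKO pools of arrays 1, 2 and 3, against 389, 356 and 283 units in the control pools. All 3 cKO pools were dimmer than all 3 control pools. The log2 ratios of -0.87, -1.35 and -1.36 gave a mean of -1.20 ± 0.28 (SD, n = 3, limma adjusted p = 0.184). A second probe gave -0.63, -0.61 and -0.73, and the first probe gave -0.63 as its mean under normexp and loess. Size thus depended on probe and processing by more than 1.5 times, with the same sign throughout.

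The ligand Cxcl12 had no common sign over the arrays. It measured 2827, 3699 and 2943 units in the cKO pools, against 3385, 1711 and 2560 units in the control pools. Its log2 ratios were -0.26, 1.11 and 0.20, and a second probe had the same mean of 0.35. Cxcr7, now Ackr3, is a scavenging receptor for CXCL12 and had the brightest probe of the chemokine receptors. It had 2057, 2009 and 3061 units in the cKO pools, against 3563, 2338 and 3939 units in the control pools. Each cKO pool was below its control, with a mean of -0.46 ± 0.30 (SD, n = 3, limma adjusted p = 1.00), but -0.12 under normexp and loess and 0.11 with median centring in place of loess. Of the remaining chemokine receptors, Ccr6 lay between 0.15 and 0.37 and Ccr7 between -0.62 and 0.27.

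In the IL-2 and IL-15 system, receptor chains lay on different sides of 0. Il15ra encodes the chain that binds IL-15 and presents it to cells carrying the beta and gamma chains. It had 282, 357 and 392 units in the cKO pools, against 912, 599 and 1182 units in the control pools. No cKO pool reached the lowest control pool. The log2 ratios of -1.69, -0.75 and -1.59 gave a mean of -1.34 ± 0.52 (SD, n = 3, limma adjusted p = 0.213), a second probe gave -0.92, and the first gave -0.67 under normexp and loess. Leaving out array 2 gave -1.64 with an adjusted p of 0.0128 by limma, in a fit that called 271 genes in place of 54. In that fit the p-values of the members given in full followed the size of the mean alone, not a gene's own spread.

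Il2rb, the beta chain shared by the IL-2 and IL-15 receptors and typical of natural killer and T cells, stood on the other side. It measured 1007, 719 and 697 units in the cKO pools, against 519, 329 and 438 units in the control pools. The groups did not overlap, and the mean was 0.92 ± 0.23 (SD, n = 3, limma adjusted p = 0.331), or 0.60 under normexp and loess. The shared gamma chain Il2rg gave 0.61, 0.12 and -1.23. Il15 itself lay between -0.25 and 0.31, and a second Il15 probe averaged -0.21.

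Il7r, the IL-7 receptor chain of lymphocytes, was above 0 on all arrays at 2.13, 0.51 and 0.54. It had 726, 147 and 187 units in the cKO pools, against 166, 104 and 129 units in the control pools. The cKO pool of array 1 stood apart, and without array 1 the mean was 0.53 in place of 1.06 ± 0.92 (SD, n = 3, limma adjusted p = 0.673). The ligand Il7 had no common sign, at 0.21, -0.77 and 0.93.

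Il33 encodes an alarmin that is stored in nuclei of endothelial and stromal cells. It measured 909, 665 and 744 units in the cKO pools, against 1310, 1430 and 1403 units in the control pools. Every cKO pool was below every control pool, and the control pools were close together. The mean log2 ratio was -0.85 ± 0.30 (SD, n = 3, limma adjusted p = 0.426), and at -0.90 it was no smaller under normexp and loess. Il1rl1, the receptor of IL-33, lay between -0.08 and 0.64.

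Il18, another IL-1 family cytokine, had 1387, 879 and 1190 units in the cKO pools, against 2068, 1587 and 1245 units in the control pools. The difference was small on array 3 (-0.58, -0.85 and -0.06, mean -0.50 ± 0.40, SD, n = 3, limma adjusted p = 1.00). Its receptor Il18r1 lay between -0.15 and 0.45, and Il18bp, which captures IL-18, between -0.89 and 0.27. Il1b, the inflammatory cytokine, was above 0 on each array, between 0.24 and 0.89. Il1rn, the secreted IL-1 receptor antagonist, gave 2.94, -0.18 and 0.55, with 281, 58.8 and 130 units in the cKO pools, against 36.6, 66.4 and 88.4 units in the control pools. Only the cKO pool of array 1 carried the large value, and the control channel was well above background on 2 of 3 arrays. The receptor chain Il1r1 lay a little below 0 on all arrays, between -0.29 and -0.07. The decoy receptor Il1r2 lay between -0.30 and 0.68, the accessory chain Il1rap between -0.46 and 0.59, and the IL-36 receptor Il1rl2 between 0.19 and 0.52.

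Among the cytokines that signal through gp130, Il11 was below 0 on all arrays. IL-11 is known in the mouse for its part in decidualisation of the uterus. It was dim, at 47.0, 38.8 and 52.5 units in the cKO pools, against 69.2, 76.3 and 77.9 units in the control pools. The groups did not overlap, and the mean was -0.70 ± 0.24 (SD, n = 3, limma adjusted p = 0.585), or -0.25 under normexp and loess. Il11ra1, the brightest interleukin receptor and one with near-identical copies, measured 40370, 34230 and 30980 units in the cKO pools, against 39400, 25300 and 43010 units in the control pools. Its log2 ratios of 0.04, 0.44 and -0.47 averaged -0.00. Il6st, which encodes gp130, lay between -0.41 and 0.32, Il6ra between -0.21 and 0.86, and Il27ra between -1.78 and 0.69. The ligand Il27 lay between -0.28 and 0.19.

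Il6, Il25 and Il20ra were described only through the cKO channel, so their ratios rest on control signals that were mostly not well above background and set no rank beside other members. Il6, an inflammatory cytokine read by 10 spots, had 38.5, 19.1 and 102 units in the cKO pools, against 13.3, 12.2 and 7.95 units in the control pools. On array 2 it passed at the limit, with 0.5 of its spots above background in the cKO channel, and some control spots on each array hold a surrogate value set by the scanner software. The control signal was not well above background on any array, and the mean was 2.02 ± 1.54 (SD, n = 3, limma adjusted p = 0.447). This mean of Il6 takes the control signals as given and is not a bound. For Il25 and Il20ra the cKO mean was also set against a floor. That floor is the lowest signal that counted as above background on each array, or the control's own signal where that was higher. Il25, a cytokine that drives type 2 immunity, had log2 ratios of 2.94, 0.29 and 2.53, with an adjusted p of 0.429 by limma. Against the same floor its cKO mean was 2.24-fold higher, while on array 2 it measured 27 units in the cKO pool and 22.1 units in the control pool. Il20ra, a receptor chain for IL-19, IL-20 and IL-24, had 149, 38.8 and 86.0 units in the cKO pools, against 17.7, 9.77 and 44.6 units in the control pools. Its control signal was well above background on 1 of 3 arrays, and the mean of 2.01 ± 1.07 (SD, n = 3, limma adjusted p = 0.225) is a 2.84-fold difference with the control set to that same lowest signal where it was dimmer. Under normexp and loess, whose offset pulls dim ratios toward 0, the means were 0.25 for Il6, 0.28 for Il25 and 0.41 for Il20ra, below the 0.83 of Ccl17.

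Il22, Il6 and Il1rn had the widest ranges between arrays. Il22, which acts on epithelium, gave 0.06, -1.74 and 2.29 from 24.5, 14.9 and 70.8 units in the cKO pools, against 23.6, 49.6 and 14.5 units in the control pools. The other members described only through the cKO channel were Ccr7, Cxcl13, Il1rn and Il4, which makes 8, and 0 were described only through the control channel. Passing in this way favours a value above 0. Among the 72 members that passed in each channel, 12 (16.7%) stood at an unadjusted p under 0.05, 8 higher and 4 lower, against 5.63% of the genes that pass the same filter (2.61% higher, 3.02% lower). Of these 72, 14 lay above 0 on all arrays and 9 below it, beside 10.9% and 12.8% of the genes passing that filter. With no filter, 18 of all 133 members (13.5%) stood at an unadjusted p under 0.05, 12 higher and 6 lower, against 6.56% of all genes (3.17% higher, 3.4% lower). Just inside the filter was Il4, at 28.0 to 36.0 units in the cKO pools and 21.5 to 28.3 units in the control pools. Just outside it lay Il13, Il17f, Il23a, Il28b, Il31ra and Cxcr5, which were above background in 2 cKO pools each, at 15.1 to 62.5 units over all their cKO pools.

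**Figure D3:**
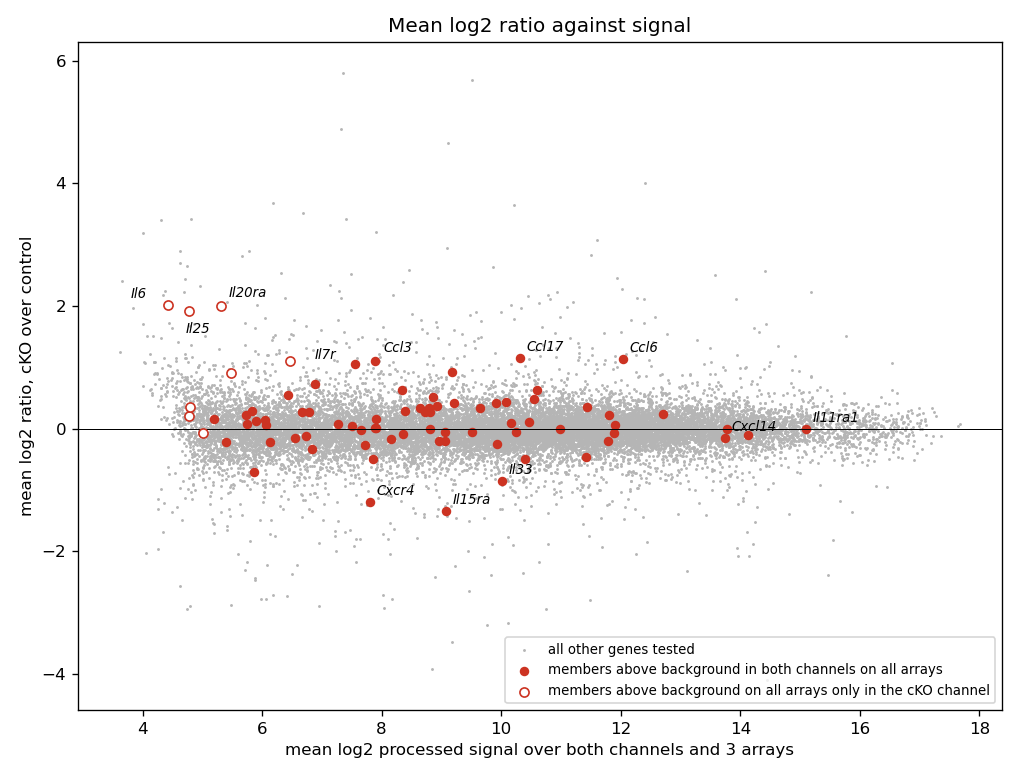
Mean log2 ratio of cKO over control (y axis) against the mean log2 processed signal over both channels and 3 arrays (x axis) for all genes tested (grey points) and the 80 described members (red). Filled red points are the 72 members above background in both channels, and open points are the 8 described only through the cKO channel, among which Il6, Il25 and Il20ra have means near 2.

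Of the interleukins not yet given, Il4i1, an amino acid oxidase named for its induction by IL-4, lay below 0 on all arrays at -0.57, -0.20 and -0.23. It had 87.3, 106 and 112 units in the cKO pools, against 130, 122 and 131 units in the control pools. Il17d, with the brightest probe of the interleukins, lay on either side of 0, with 3511, 3568 and 4085 units in the cKO pools, against 4187, 3061 and 4573 units in the control pools. Il16, a T cell attractant, ranged from -0.18 to 0.91, and Il24 from -0.22 to 0.59. Il4 lay between 0.22 and 0.49, with a control signal not well above background on any array.

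The remaining receptor chains scattered around 0. Of the type 2 receptor chains, Il4ra lay between -0.87 and 0.86, Il13ra1 between 0.02 and 0.51, and the decoy Il13ra2 between -0.80 and 1.13. In the IL-10 family, Il10ra lay between -0.94 and 1.19, Il10rb between -0.43 and 0.18, Il22ra1 between -1.20 and 1.25, Il20rb between -0.39 and 0.55, and Il28ra (now Ifnlr1) between -0.53 and 0.49. Of the IL-17 receptors, Il17ra lay between -0.78 and 0.39, Il17rb between -0.07 and 0.62, Il17rc between -0.21 and 0.61, Il17rd between -0.31 and 0.16, and Il17re between -0.25 and 1.40. Il12rb1 lay between -0.19 and 0.25, Il21r between -0.80 and 0.16, and Il3ra between -0.35 and 0.14. Of the probes given here only that of Il13ra1 kept 1 sign on all arrays, and a second Il13ra1 probe did not (0.35, 0.17 and -0.48). Both further kept probes of Il17rd lay below 0 on every array, at -0.52, -0.30 and -0.21 and, for a dim one, at -0.71, -0.58 and -0.35.

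The family medians repeated the split between arrays for receptors and CXC ligands but not for CC ligands or interleukins. CXC ligands had medians of 0.18, 0.80 and -0.37 on arrays 1, 2 and 3. Interleukin receptors had a median of 0.19 and 0.25 on arrays 1 and 2 and of -0.15 on array 3, and chemokine receptors of 0.11, 0.22 and -0.32. The interleukins had medians of 0.06, -0.07 and 0.19. Described members agreed in sign between arrays 1 and 2 for 75% of genes, between arrays 1 and 3 for 48.8% and between arrays 2 and 3 for 46.2%, against 67.1%, 43.4% and 37.7% of all genes tested. Within the slide of arrays 2 and 3 the members' median was 0.09, and Il6 was the only member called (limma adjusted p = 0.00226), which is 1.25% of members against 0.665% of all genes. With the slide as a fixed term, Il1rn, Il20ra, Il25 and Il6 were called (5% of members, against 1.27% of all genes). Leaving out array 2 called Il15ra, Il1rn, Il20ra, Il25 and Il6 (6.25%, against 1.51%). All but Il15ra are members whose control signal was not well above background on every array. In each of these fits the p-values of the members given in full followed the size of the mean alone. They did not depend on how far a gene's own arrays agreed. Il6 was called within the slide although its log2 ratios on arrays 2 and 3 were 0.702 and 3.715.

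**Figure D4:**
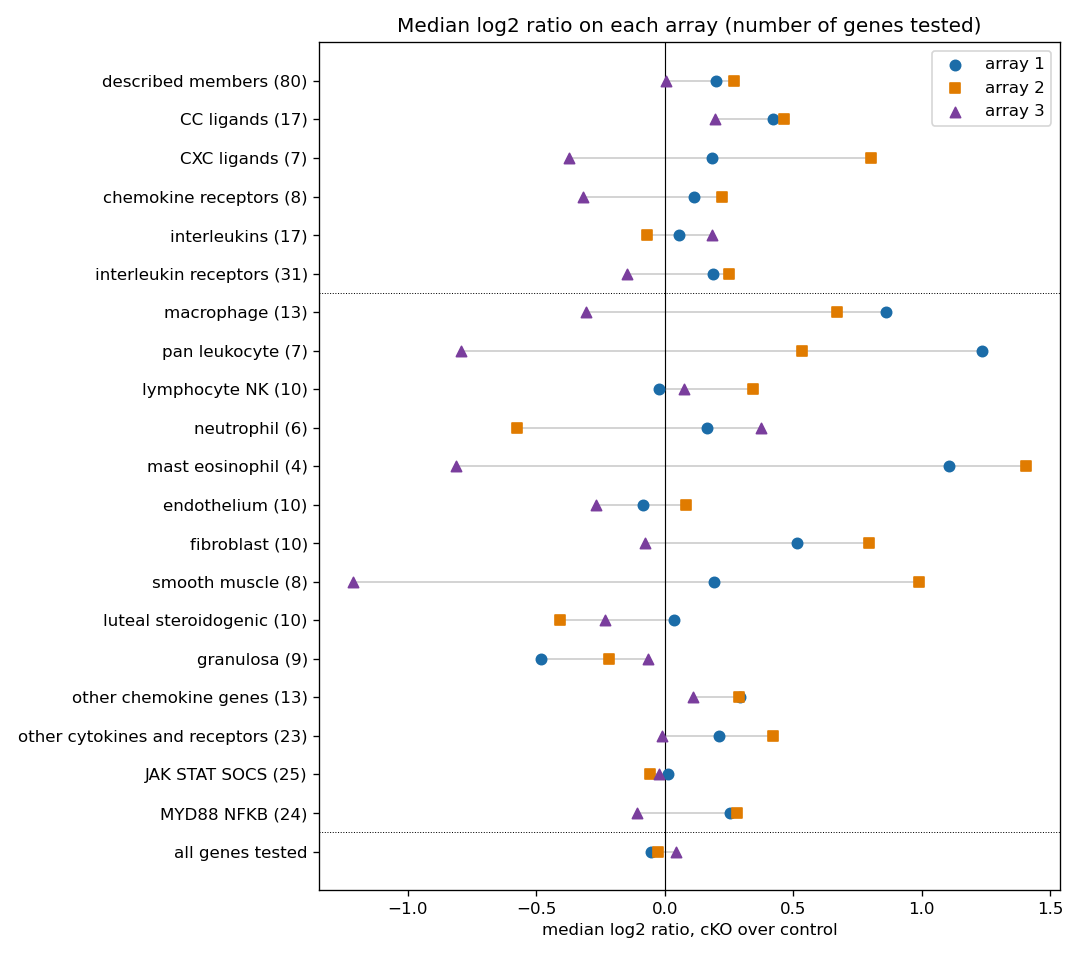
Median log2 ratio of cKO over control (x axis) on arrays 1, 2 and 3 for the described members and their families (top), marker and pathway lists (middle, with the number of genes tested) and all genes tested (bottom). The macrophage, pan-leukocyte, mast cell, fibroblast and smooth muscle lists lie right of 0 on arrays 1 and 2 and left of it on array 3. So do the lists of other cytokines and of MYD88 and NF-kappaB signalling, while the lymphocyte and neutrophil lists do not. The 3 medians of the CC ligands all lie right of 0.

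Macrophage and pan-leukocyte markers differed between arrays much as many members did. The split was not particular to leukocyte lists. Smooth muscle markers had medians of 0.19, 0.99 and -1.21 on arrays 1, 2 and 3, and fibroblast markers of 0.51, 0.80 and -0.08. Lymphocyte and neutrophil markers did not show it. The 13 macrophage markers, all tested, had medians of 0.86, 0.67 and -0.31 on arrays 1, 2 and 3, and a summed signal of 92510 to 191600 units in the cKO pools, against 45100 to 86260 units in the control pools. The highest was Lyz2, the lysozyme of macrophages and neutrophils (2.62, 1.31 and 0.58, limma adjusted p = 0.423), and the lowest was Cd163, a scavenger receptor of tissue macrophages (-1.16, 0.14 and -1.10). Lyz2 alone made up most of the summed signal in every pool. It had 151400, 73260 and 74970 units in the cKO pools, against 24620, 29520 and 50280 units in the control pools. The summed macrophage signal thus mainly follows Lyz2 and does not describe the list. The 7 pan-leukocyte markers had medians of 1.24, 0.54 and -0.79, with a summed signal of 16920 to 41150 units in the cKO pools, against 12930 to 23850 units in the control pools. Ptprc, the gene for CD45, was above 0 on all arrays (0.88, 0.54 and 0.42, limma adjusted p = 0.711).

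Of the 13 lymphocyte and natural killer markers 10 were tested, with medians of -0.02, 0.34 and 0.08. Their summed signal was 1359 to 1512 units in the cKO pools, against 1310 to 1332 units in the control pools, and the B cell gene Cd79a and the killer cell genes Prf1 and Ncr1 were too dim. Gzmb, the granzyme of killer cells, was the highest at 0.80 ± 0.26 and Cd3e, a T cell receptor chain, the lowest at -0.62 ± 0.50 (SD, n = 3 each). No marker of these lists was called, and their part in the members' values was not tested. Endothelial markers had a median of -0.06, fibroblast markers one of 0.34, and luteal and granulosa markers medians of -0.31 each. Star was the only gene called among them.

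Chemokine genes that the name rule leaves out were read in the same fit. Of 13 listed, all were tested and none was called, with a median of 0.09; 1 of them, Ackr3, is the member listed above as Cxcr7. The highest was Ccrl2, a chemerin-binding relative of the chemokine receptors that does not signal as they do. It had 4392, 2717 and 4629 units in the cKO pools, against 1548, 945 and 855 units in the control pools. The groups were well apart (1.82 ± 0.53, SD, n = 3, limma adjusted p = 0.104, or 1.66 under normexp and loess). Ackr4, a scavenger of CCL19 and CCL21, was dim, with a control signal well above background on 1 of 3 arrays, and gave 1.08 ± 0.50 (SD, n = 3, limma adjusted p = 0.346), or 0.13 under normexp and loess.

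Other cytokine genes and receptors had a median of 0.12 over the 23 of 27 that were tested, with none called. Spp1, the gene for osteopontin, which attracts macrophages and T cells, had 31830, 7195 and 45470 units in the cKO pools, against 1550, 1334 and 1214 units in the control pools. Its mean of 4.01 ± 1.43 (SD, n = 3) missed the threshold (limma adjusted p = 0.0638). Tnf gave 1.44, 1.12 and -0.11, with a control signal well above background on 1 of 3 arrays. The 25 genes of JAK, STAT and SOCS signalling had a median of 0.02, with Stat5a at 0.65 ± 0.45 and the phosphatase Ptpn6 at -0.63 ± 0.76 (SD, n = 3 each). The 24 of 25 tested genes of MYD88 and NF-kappaB signalling had a median of 0.08, with Bcl3 at 0.70 ± 0.23 and Irak2 at -0.68 ± 1.09 (SD, n = 3 each). None of either list was called.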

How the data were processed

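RNA of whole ovaries was measured on 3 two-colour Agilent arrays, each with 1 cKO and 1 control pool of 3 animals. Spot and local background intensity values, and the processed intensity values made from them by background subtraction and dye normalisation, are as deposited; the file headers name Agilent Feature Extraction, version 9.1.3.1, as their source. Red over green, so control over cKO, is the direction of the deposited log10 ratios. The series' value table holds the same log10 values on each array (largest difference 0, median 0 on each). From these deposited values log2 ratios of cKO over control were computed by turning the sign and changing the base. Control spots and 13, 4 and 0 outlier spots on arrays 1, 2 and 3 were left out, and replicate spots were averaged. A probe was kept if at least 0.5 of its spots were well above background on all 3 arrays in 1 channel. The brightest kept probe stood for a gene, and 4 of 20 described members with further probes had one of opposite sign (Ccr2, Il11ra1, Il15 and Il17rc).

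Ratios were tested against 0 with limma 3.58.1 under R 4.3.3 (intercept only, 3 arrays, two-sided, Benjamini-Hochberg over 17901 genes), after a check on simulated data. The p-values measure the spread of 3 ratios, each of 1 cKO pool over 1 control pool. Differences between pools, arrays and slides are mixed in that spread, and it is not the spread between animals. With a fixed slide term, or without array 1 or 2, the p-values of the members given in full followed the size of the mean alone. Members were named through RefSeq GRCm38.p6, 161 of 187 probes by accession and 26 by symbol. Genes described with full values are those called, the 8 highest and 8 lowest with 1 sign on all arrays, the 3 with the widest range, and in each family the brightest and the largest mean; others are given by range, or were added for their role or after their values were seen. The members and lists were chosen with earlier results of these data known. Alternatives were normexp (offset 50) with loess or median centring, scaling between arrays, 2 other filters, the mean of probes, the slide, and leaving out each array. Array signal limits precision for dim probes. The values of 1 member counted among those described are not reported here.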

Additional observations from a re-analysis of the deposited data

How the results depend on the processing

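Of 247 values of the 23 members given in full, recomputed under 11 alternatives, 220 kept their direction and their side of the threshold, 16 changed sign and 11 passed the threshold; 17 members changed sign under none. The slide of arrays 2 and 3 and leaving out array 1 are the same fit, so its values enter these counts under both names. Ccl21b stood at 0.16 with arrays scaled and 0.17 with the slide as a fixed term (chosen after seeing the data), Cxcr7 at 0.11 with median centring, and Il22 at -0.0020 with arrays scaled. Il17d stood at 0.20 with median centring and 0.0289 within the slide of arrays 2 and 3. Il11ra1 stood at 0.0188 with normexp and loess, 0.11 with median centring, 0.0469 with arrays scaled, 0.0542 with the mean of probes and 0.0082 with the fixed slide term. Leaving out each array gave -0.35 to 0.58 for Ccl21b, -0.62 to 0.49 for Cxcl14, -0.22 to 0.24 for Il11ra1, -0.21 to 0.0289 for Il17d and -0.84 to 1.17 for Il22. Over all genes, 28 were called higher and 26 lower. The counts were 18 and 22 with normexp and loess, 0 and 1 with median centring, 6 and 1 with arrays scaled, 136 and 92 with the fixed slide term, and 59 and 60 within the slide of arrays 2 and 3. With no filter on dim probes they were 0 and 0 by limma, with 1844 genes at an unadjusted p under 0.05. Higher genes were 51.9% of calls, against 85.7% with arrays scaled. Leaving out each array gave 10 to 158 higher, 18 to 113 lower and 0 to 5 members called; the fixed slide term called 4 members and the slide of arrays 2 and 3 called 1. The members' median ranged from 0.03 to 0.25, and without each array from 0.09 to 0.25. Members with 1 sign on all arrays used numbered 37 to 60 without each array and 28 with all 3. Median centring moved the median of all genes to 0.12, beside a members' median of 0.13. The cause of these changes was not tested. The planned random block for the slide was not run, because its correlation could not be estimated from 3 arrays. No paired analysis was possible because each ratio already pairs the cKO and control pools of its array, which are different animals.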

Other observations

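Granulocyte genes gave no common direction. Of 9 neutrophil markers 6 were tested, with a median log2 ratio of -0.01 (0.17, -0.58 and 0.38 on arrays 1, 2 and 3) and a summed signal of 1789 to 3219 units in the cKO pools, against 2445 to 2481 units in the control pools. S100a9, a chain of calprotectin, lay between -0.24 and 0.10. Of 8 mast cell and eosinophil markers 4 were tested. The mast cell proteases Cpa3, Cma1 and Mcpt4 gave 1.27, 1.34 and 0.94 on array 1, 1.61, 2.08 and 1.20 on array 2, and -0.66, -1.25 and -0.96 on array 3. The fourth, the IgE receptor chain Fcer1a, ran the other way, at -0.72, -0.64 and 0.60. None was called by limma, and the eosinophil genes Prg2 and Epx were too dim on these arrays. Smooth muscle genes were likewise split between arrays, with medians of 0.19, 0.99 and -1.21 on arrays 1, 2 and 3 and a summed signal of 64920 to 137800 units in the cKO pools, against 61020 to 146500 units in the control pools.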
